A study of Mus musculus with 4 samples.

Results

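The lung endothelial cells of mice of the M3cKO line on day 7 after pneumonectomy (M3cKO PNX) were compared with those of sham-operated mice (sham). Cells were chosen by a fixed rule on transcripts. A cell needed at least 500 detected genes and at most 10% mitochondrial UMIs (unique molecular identifiers, the tags that count original RNA molecules). It also needed at least 2 UMIs summed over Pecam1, Cdh5, Cldn5, Egfl7, Ramp2 and Tie1, and 0 UMIs of Ptprc, Epcam, Col1a1 and Col1a2. The rule kept 4665 sham cells and 2491 M3cKO PNX cells, 7156 of the 34683 cell barcodes of the series. At the edge of the rule, 34 sham and 47 M3cKO PNX cells held exactly 2 endothelial UMIs, and 71 and 150 cells held 1 with none of the excluded transcripts.

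The series held 4 single-cell libraries, 1 per group, from mouse lung depleted of CD45-positive cells and then selected for CD31, a surface protein of endothelium. Its title concerns endothelial Rhoj in lung regeneration. Besides the 2 libraries compared here, WT PNX (wild type, day 7 after pneumonectomy) and Foxo1cKO PNX (a conditional Foxo1 knockout, day 7 after pneumonectomy) had 3887 and 3811 cells under the same rule. Sham mice were wild type, so genotype and surgery differ at once between the compared libraries and cannot be told apart. The sources used here do not give the gene that M3 stands for, the Cre driver of the knockout, the age of the mice or how many animals went into a library. Each group had 1 library, so there was no spread between animals and no test, and all 95% intervals cover counting error only. In summed UMIs, fewer cells of a type and less RNA per cell cannot be told apart.

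Pneumonectomy removes part of the lung, and the remaining lobes grow in rodents. The alveolar wall is lined by 2 kinds of capillary endothelium. General capillary cells serve as the progenitors and carry Gpihbp1 and Plvap, and aerocytes are large cells of the gas exchange surface that carry Car4 and Ednrb. Endothelium also acts on its neighbours through secreted factors, matrix and proteases, which are called angiocrine signals when they come from the vessel.

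The rule cells held 10493693 UMIs in sham and 6492399 in M3cKO PNX, with medians of 1841 and 2070 UMIs per cell. CPM is the number of UMIs of a gene in every 1000000 UMIs of the summed cells, so 3 UMIs are 0.286 CPM in sham and 0.462 CPM in M3cKO PNX. The rule cells were 87.7% of the filtered cells in sham and 44.9% in M3cKO PNX. Pecam1, which encodes CD31, was at 3295 CPM in sham and 3353 CPM in M3cKO PNX, and Cdh5 (VE-cadherin) at 2515 and 2121 CPM. The tight junction gene Cldn5 was at 1717 and 1086 CPM. Markers of other cells were carried along. The 8 B cell markers summed to 375 CPM in sham and 4661 CPM in M3cKO PNX, most of it Igkc, and the 6 platelet markers to 39.6 and 446 CPM. The 9 T or NK cell markers summed to 21.2 and 108 CPM, the 8 alveolar type 2 markers to 327 and 161 CPM, the 6 airway markers to 605 and 81.2 CPM, and the 9 fibroblast markers to 73.8 and 50.2 CPM. Xist was at 0 CPM in sham and M3cKO PNX and at 132 and 154 CPM in WT PNX and Foxo1cKO PNX, so the compared pair held no female-type transcript and the other pair did. The 2 compared libraries shared 85 barcode sequences, 15 of them among rule cells.

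Clusters of the rule cells followed the library as well as the cell type. A cluster named as general capillary held 2383 cells of the 4 libraries, 2195 of them from sham. An unnamed cluster led by Zbtb16, Plat, Nr1d1 and Timp3 held 1086 cells, 1030 of them from M3cKO PNX, and a stress cluster led by Hspa1b, Hspa1a and Atf3 held 560, 524 of them from M3cKO PNX. The genes that lead these clusters are described below from the summed cells and not from the clusters. For comparisons within classes, aerocytes (807 sham and 225 M3cKO PNX cells) and venous cells (369 and 237) came from this clustering. General capillary cells (1041 and 591) came from a clustering in which each library was first centred, which was chosen after the data were seen. The largest cluster of that clustering held 921 sham and 310 M3cKO PNX cells. Ntrk2, Sema3c, Glp1r and Kit were among its leading genes, but it had too few fixed markers for a name. It is not in this class, so the class is a part of the capillary cells.

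Of 3888 genes at 50 CPM or more in either library, 82 were at least 2-fold higher in M3cKO PNX (2.11%) and 64 at least 2-fold lower (1.65%), on the ratio of CPM + 5, which understates the change of low genes. Fold changes with intervals are ratios of CPM. The median log2 ratio of the 8927 genes at 10 CPM or more was -0.07. Genes higher in M3cKO PNX included clock output genes (Dbp, Nr1d1, Per2, Tef), glucocorticoid-responsive genes (Zbtb16, Fkbp5, Map3k6), the protease inhibitor Timp3 and the plasminogen activator Plat, inducible heat shock proteins, and mitotic genes. Genes lower in M3cKO PNX included enzymes of retinoid and xenobiotic metabolism (Cyp26b1, Dhrs3, Cyp1a1, Fmo1, Fmo2), some receptors of capillary endothelium (Aplnr, Kdr, Nrp1, Ednrb) and interferon-inducible GTPases. The 82 higher genes included 19, and the 64 lower genes 7, that were left out of the largest ratios named below. These 26 genes were high in blood, epithelial or mesenchymal cells, came mostly from 1 cell or were of a class not named. Among them were the immunoglobulin genes Igkc, at 334 CPM in sham and 4583 CPM in M3cKO PNX, and Ighg2c, and the club cell gene Scgb1a1, at 587 and 78.4 CPM with 89.3% of its sham UMIs in 1 cell. With cells of at most 5% mitochondrial UMIs alone (987 sham and 607 M3cKO PNX cells) the counts were 130 higher and 127 lower.

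**Figure D1:**
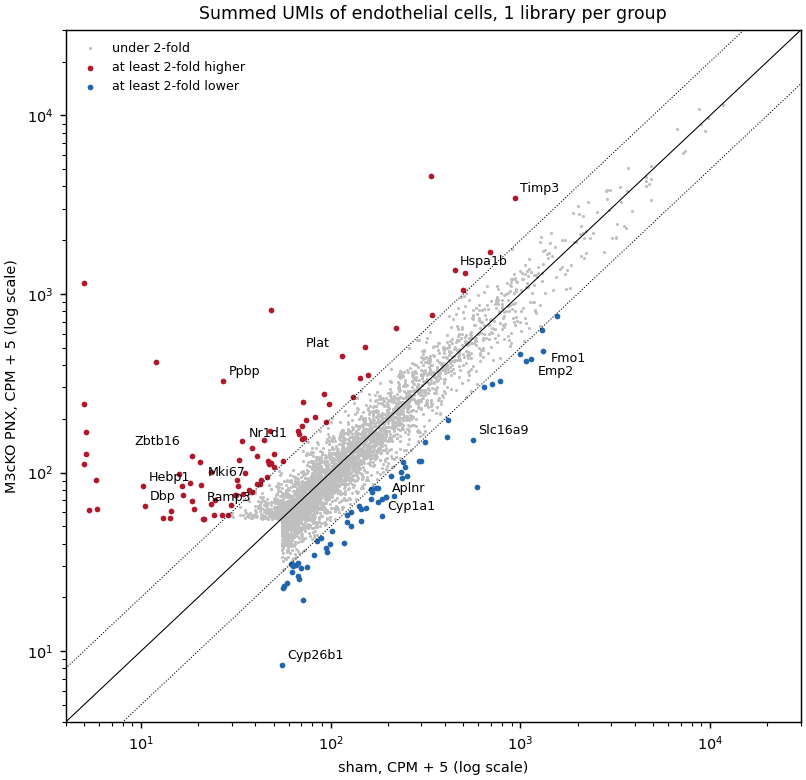
Levels in sham (x axis) and M3cKO PNX (y axis) as CPM + 5 on log scales for the 3888 genes at 50 CPM or more, with the line of equality and dotted lines at 2-fold. The 82 red genes, among them Timp3 at 926 and 3456 CPM, lie above the upper dotted line and the 64 blue genes below the lower one, with Igkc and Ighg2c among the unlabelled red points.

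The molecular clock turns on a loop in which Arntl (BMAL1) and Clock drive the Per, Cry and Nr1d genes through E-box sequences, and the products of these genes feed back on the loop. Dbp, Tef and Hlf are output factors of the PAR bZIP family. Of 19 measured clock members (at 10 CPM or more in either library), 13 were at least 1.5-fold higher in M3cKO PNX and 1 at least 1.5-fold lower. Over all 8927 genes these shares were 6.22% higher and 7.59% lower, and they are the background for every list count over all rule cells below. The list median was a log2 ratio of 1.06.

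Dbp (ENSMUSG00000059824, GRCm38 chromosome 7, 45705088 to 45710203) was at 5.43 CPM in sham against 60.1 in M3cKO PNX, with 3.29 in WT PNX and 2.997 in Foxo1cKO PNX. The M3cKO PNX level was 11.1-fold that of sham (8.36 to 14.9). Nr1d1 (ENSMUSG00000020889, chromosome 11, 98767932 to 98775333), which encodes the repressor REV-ERB alpha, was at 29.0, 146, 10.4 and 12.1 CPM in the same order, a ratio of M3cKO PNX to sham of 5.03 (4.42 to 5.74). The M3cKO PNX library was the highest of the 4 for both genes, and sham was above the other 2. Per2, a repressor of the loop, was at 4.76 CPM in sham against 40.7 in M3cKO PNX, with 2.70 in WT PNX and 2.43 in Foxo1cKO PNX. Tef was at 13.5, 64.7, 8.47 and 6.88 CPM in that order. Cry1, another repressor, was at 10.2 CPM in sham against 40.8 in M3cKO PNX, with 26.4 and 21.0 in the other 2. Arntl went the other way, with 22.9 CPM in sham, 22.6 in WT PNX, 22.03 in Foxo1cKO PNX and 4.77 in M3cKO PNX, 4.79-fold below sham (3.29 to 7.21). Per1 was at 110.3 and 153 CPM and Clock at 43.0 and 34.3 CPM in sham and M3cKO PNX, both within 1.5-fold. Cry1, Arntl, Per1 and Clock, like the other list members that the naming rule did not pick, were chosen after their values were seen.

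The same direction was measured within 3 endothelial classes. Of the clock members at 10 CPM or more, 10 of 15 were at least 1.5-fold higher in aerocytes (5.61% of all genes there), 11 of 19 in venous cells (9.28%) and 13 of 18 in general capillary cells (7.6%). Arntl was at 17.8 CPM in sham against 3.84 in M3cKO PNX among aerocytes, at 21.3 and 3.28 among general capillary cells, and at 40.5 and 6.73 among venous cells. Dbp rested on few UMIs in sham classes, at 2.71 and 32.0 CPM in aerocytes, 3.65 and 66.7 in general capillary cells, and 4.16 and 101 in venous cells. Cells with a Ptprc UMI and no endothelial UMI, set apart by the leukocyte antigen CD45 that Ptprc encodes, had 9.50 CPM of Dbp in sham (2 UMIs) and 4.00 in M3cKO PNX, 33.2 and 32.0 CPM of Nr1d1, and 14.2 and 19.8 CPM of Arntl. Sham held 101 such cells and M3cKO PNX 1236, so their sham levels rest on few UMIs. Their makeup differed too, with T or NK cell markers in 34.7% of them in sham and 58.1% in M3cKO PNX. No source used here gives the hour at which lungs were taken.

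Promoter sequence was set beside the clock genes because the E-box is the site through which the loop works. The window was the 250 bases before the transcription start, read from the RefSeq promoter table (GRCm38.p6), and motifs were searched on both strands. CACGTG, the canonical E-box, was in 6.02% of all 32851 windows. Here and below, a gene with more than 1 window counted when any of them held the motif. Shares of all windows count each window, so the measures differ. Of the 13 higher clock members 11 had a window and 4 of these (Bhlhe41, Ciart, Cry1 and Tef) held an E-box. Of all 19 measured members 16 had a window and 5 held it, with Per1 added. Ciart, a repressor of the loop, had 3, at 116, 58 and 44 bases before the start, and Tef had 1, at 127 bases. The D-box TTATGTAA, the site of Dbp and Tef themselves, was in 0.819% of windows and in 1 of the 11, that of Per3. Tef had 2 starts, and a window that held an E-box is shown. The windows of Ciart (chr3:95882229-95882478, minus strand) and Tef (chr15:81802423-81802672, plus strand) are shown with each E-box in capitals.
Ciart: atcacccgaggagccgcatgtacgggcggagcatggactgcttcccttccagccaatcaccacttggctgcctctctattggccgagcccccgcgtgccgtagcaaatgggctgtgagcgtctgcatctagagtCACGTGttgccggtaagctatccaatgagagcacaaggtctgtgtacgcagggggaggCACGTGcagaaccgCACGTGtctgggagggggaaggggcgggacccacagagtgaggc
Tef: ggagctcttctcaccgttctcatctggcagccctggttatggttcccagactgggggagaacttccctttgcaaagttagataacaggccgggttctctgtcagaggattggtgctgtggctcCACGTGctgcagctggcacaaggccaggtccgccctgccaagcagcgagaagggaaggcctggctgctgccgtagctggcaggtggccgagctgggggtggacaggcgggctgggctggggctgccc
Ciart was at 42.5 CPM in sham against 80.1 in M3cKO PNX, a ratio of 1.88 (1.66 to 2.14), and the ratio was 4.78 for Tef (3.94 to 5.82).

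Glucocorticoids act through the receptor Nr3c1 and induce a known set of genes, several of which are also under clock control. Of 16 measured members of this list 6 were higher and 2 lower in M3cKO PNX, and the median log2 ratio was 0.41. Zbtb16, a zinc finger repressor and a sensitive glucocorticoid target, was at 13.6 CPM in sham against 119 in M3cKO PNX, with 7.82 in WT PNX and 6.64 in Foxo1cKO PNX, 8.70-fold above sham (7.27 to 10.5). Fkbp5, a cochaperone of the receptor, was at 13.2, 82.2, 21.2 and 21.8 CPM in that order of libraries, a ratio of 6.25 (5.18 to 7.60). Map3k6, a kinase, was at 87.2, 272, 52.1 and 48.9 CPM, a ratio of 3.12 (2.88 to 3.38). In each case the M3cKO PNX library stood above the other 3. The list did not move as a whole: Klf9 was at 492 CPM in sham against 457 in M3cKO PNX, Cdkn1a at 795 and 837, Dusp1 at 895 and 818, and Tsc22d3 (GILZ) at 247 and 369. Nr3c1 itself was at 181 and 150 CPM. Lcn2, a lipocalin, and Sult1a1, a sulfotransferase, were the 2 lower members, at 37.5 and 12.6 CPM and at 31.1 and 11.2 CPM. Mt1, a metallothionein, was among the higher members at 16.6 and 50.2 CPM, and in cells with a Ptprc UMI it was at 123 and 647 CPM. Zbtb16 was also higher in each of 3 classes, with 22.4 CPM in sham and 122 in M3cKO PNX among aerocytes, 12.2 and 177 among general capillary cells, and 6.24 and 90.2 among venous cells. In cells with a Ptprc UMI it was at 23.7 and 15.003 CPM, while Fkbp5 there was at 38.0 and 123 CPM.

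Matrix turnover in the vessel wall is set by metalloproteinases and their inhibitors and by the plasmin system, which the activator Plat (tPA) turns on. Of 15 measured members of the TIMP and metalloproteinase list 6 were higher and 2 lower, with a median log2 ratio of 0.25. Timp3 (ENSMUSG00000020044, chromosome 10, 86300372 to 86349506), an inhibitor that binds to matrix and also to KDR, was at 926 CPM in sham against 3456 in M3cKO PNX, with 621 in WT PNX and 582 in Foxo1cKO PNX. It was 3.73-fold higher in M3cKO PNX than in sham (3.64 to 3.82). Plat was at 109, 445, 126 and 114 CPM in that order, a ratio of 4.07 (3.80 to 4.36), and was the highest in M3cKO PNX. Adamts9, a proteoglycan-cleaving protease, was at 42.2 and 106 CPM and Adam15 at 133 and 255 CPM. Mmp15, a membrane-bound metalloproteinase, was lower, at 233 CPM in sham but 87.6 in M3cKO PNX, against 184 and 218 in WT PNX and Foxo1cKO PNX.

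The classes differed in which of these genes they carried. Plat was at 935 CPM in sham arterial cells and 2859 CPM in those of M3cKO PNX (138 and 28 cells), against 98.0 and 635 CPM in general capillary cells, 34.8 and 146 CPM in aerocytes and 15.6 and 71.3 CPM in venous cells. Timp3 was at 295 and 2786 CPM in general capillary cells, at 1257 and 4474 CPM in aerocytes and at 1295 and 5712 CPM in venous cells. Of 24 measured basement membrane and matrix genes 7 were higher and 1 lower, with a median of 0.37. The median was nearer 0 within classes, at 0.09 in aerocytes, -0.09 in venous cells and -0.04 in general capillary cells. There 4 of 16 members were higher and 0 lower in aerocytes, 5 and 5 of 20 in venous cells, and 4 and 2 of 17 in general capillary cells. Of all genes, 5.61%, 9.28% and 7.6% were higher in these classes and 11.4%, 16.2% and 13.4% lower. The collagen IV chains Col4a1 and Col4a2 were at 1448 and 2195 CPM and at 1262 and 1942 CPM, and Ntn4, a basement membrane netrin, was the lower one, at 161 and 104 CPM. Thbs1 (thrombospondin) was at 41.1 and 88.9 CPM in the rule cells and at 14.2 and 690.1 CPM in cells with a Ptprc UMI. Without clusters led by blood or alveolar genes its log2 ratio was -0.13 in place of 1.03. Of 15 elastic fibre genes 2 were higher and 3 lower. Eln was at 177 CPM in sham against 312 in M3cKO PNX, below the 798 and 816 CPM of WT PNX and Foxo1cKO PNX, and Fkbp14, a collagen-folding isomerase of the endoplasmic reticulum, was at 33.5 and 133 CPM against 32.4 and 23.3 CPM.

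**Figure D2:**
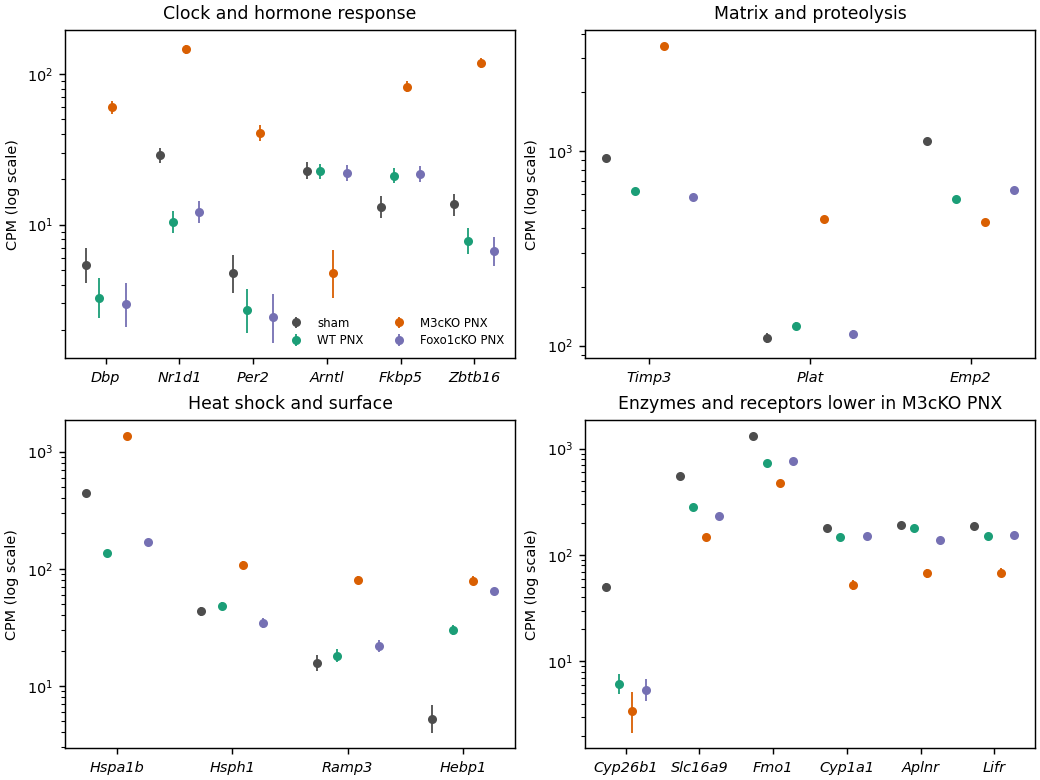
CPM on log scales in the 4 libraries for genes of the clock and hormone response, of matrix and proteolysis, of heat shock and the cell surface, and for genes lower in M3cKO PNX; points are 1 library each and bars are 95% Poisson intervals of counting error. For Dbp, Zbtb16, Timp3 and Plat the M3cKO PNX point lies above the other 3, and for Arntl, Cyp1a1, Aplnr and Lifr it lies below them.

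Heat shock proteins are chaperones that Hsf1 induces through the heat shock element when proteins misfold. Of 27 measured chaperones 8 were higher in M3cKO PNX and 0 lower, with a median of 0.41. Hspa1b and Hspa1a, the inducible HSP70 genes, were at 446 and 217 CPM in sham and at 1356 and 643 CPM in M3cKO PNX. In WT PNX they were at 138 and 81.6 CPM and in Foxo1cKO PNX at 168 and 95.8 CPM, so sham stood between M3cKO PNX and the other 2 libraries. These genes are near-identical copies, so the split of reads between them is uncertain. Hsp90aa1, the inducible HSP90, was at 491 and 1053 CPM, Hsph1 (HSP110) at 43.3 and 108 CPM, and Hspa5, the chaperone of the endoplasmic reticulum also called BiP, at 479 and 960.4 CPM in sham and M3cKO PNX. Hsf1 was at 35.5 and 34.8 CPM. The small chaperone Hspb1 was at 416 and 448 CPM and Dnajb1, which works with HSP70, at 189 and 256 CPM, so these inducible members stayed within 1.5-fold. In cells with a Ptprc UMI the direction was opposite, with 1477 CPM of Hspa1b in sham and 449 in M3cKO PNX, and 461 and 146 CPM of Hspa1a. In general capillary cells the Hspa1b levels were 139 and 284 CPM and those of Hspa1a 67.0 and 110.4 CPM, the latter below 2-fold. The clustering behind this class set apart a stress cluster led in part by Hspa1a and Hspa1b, and these values leave its cells out.

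The promoters of this pair are shown because the heat shock element GAANNTTC was found at the same place in both, 104 bases before the start, and was in 6.69% of all windows. Of the 8 higher chaperones 6 had a window, and the element was in the windows of these 2 genes. Of all 27 measured chaperones 21 had a window and 7 held it. The windows (Hspa1a chr17:34972157-34972406 and Hspa1b chr17:34959239-34959488, both minus strand) had the same base at 247 of 250 positions, and the element is in capitals.
Hspa1a: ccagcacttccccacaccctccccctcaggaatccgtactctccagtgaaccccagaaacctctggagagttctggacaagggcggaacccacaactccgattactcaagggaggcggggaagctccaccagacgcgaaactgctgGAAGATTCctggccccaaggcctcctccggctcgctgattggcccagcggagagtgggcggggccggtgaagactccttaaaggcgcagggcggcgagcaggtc
Hspa1b: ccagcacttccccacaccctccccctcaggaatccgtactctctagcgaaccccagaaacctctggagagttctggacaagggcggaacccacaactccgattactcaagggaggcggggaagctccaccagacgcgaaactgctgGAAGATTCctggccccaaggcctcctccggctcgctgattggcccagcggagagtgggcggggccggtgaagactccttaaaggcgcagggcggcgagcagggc
Immediate early genes, which respond within minutes to stress and growth factors, were higher in 6 of 23 measured cases and lower in 0, and the list median was 0.40. Within classes the median was 0.39 in aerocytes, -0.03 in venous cells and -0.35 in general capillary cells. In cells with a Ptprc UMI it was -0.78. Among general capillary cells 3 of 20 were higher and 5 lower, against 7.6% and 13.4% of all genes there. Nr4a3, an orphan nuclear receptor, was at 4.38 CPM in sham against 44.5 in M3cKO PNX, and at 133 and 686 CPM in cells with a Ptprc UMI. Maff was at 63.3 and 159 CPM and Atf3 at 329 and 611 CPM. In general capillary cells Atf3 went the other way, at 76.1 and 37.2 CPM. The clustering behind this class set apart a stress cluster led by Atf3, Egr1 and Junb among others (666 sham and 467 M3cKO PNX cells). The class leaves that cluster out, so its values for these genes cover the remaining cells only. Jun, Ier2 and Klf6 were lower by less than 1.5-fold, at 2080 and 1628 CPM for Jun.

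Genes of the G2 and M phases were higher in M3cKO PNX than in sham, and those named here were lower than in the other 2 pneumonectomy libraries. All 32 measured genes of the G2 and M phases passed 1.5-fold in the higher direction, with a median log2 ratio of 1.47, and 13 of 25 S phase genes were higher with 0 lower and a median of 0.61. Mki67, the proliferation antigen, was at 15.5 CPM in sham against 110.3 in M3cKO PNX, with 256 in WT PNX and 163 in Foxo1cKO PNX. Top2a, which untangles DNA, was at 11.4, 79.5, 209 and 118 CPM, and Prc1, of the central spindle, at 8.10, 50.5, 120.3 and 63.5 CPM in that order. The share of cycling endothelial cells, those with 2 or more UMIs summed over 10 cell cycle genes, was 0.622% in sham (29 of 4665, exact binomial interval 0.417 to 0.892%) and 4.42% in M3cKO PNX (110 of 2491, 3.64 to 5.30%). It was 11.8% in WT PNX (10.8 to 12.8%) and 7.66% in Foxo1cKO PNX (6.84 to 8.55%). After thinning cells to 2000 UMIs, which left out 2654 sham and 1197 M3cKO PNX cells, the shares were 0.845% (0.493 to 1.35%) and 5.72% (4.52 to 7.13%). One cluster led by Mki67 and Top2a held 17 sham and 59 M3cKO PNX cells, and it carried 84.8% and 78.9% of the UMIs of the 10 genes. The B, T or NK and platelet markers carried along were also higher in M3cKO PNX, and their part in these shares is not reported here. In the general capillary class, 4 G2 and M phase genes reached 10 CPM and their median was 0.03. The clustering behind this class put cells high in cycle genes into a cluster of their own (23 sham and 63 M3cKO PNX cells). The class leaves that cluster out, so its median cannot show whether cycling differed. Among the regulators of entry into the cycle, Ccnd1 (cyclin D1) was at 417 and 744 CPM and the inhibitor Cdkn2b at 32.3 and 10.3 CPM.

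Mitotic promoters carry a CHR element and CCAAT boxes, through which the DREAM complex and NF-Y act. TTTGAA, the CHR, was in 15.99% of all windows. Of the G2 and M phase genes, 28 had a window and 13 of these held a CHR. CCAAT was in 33.8% of all windows and in those of 22 of the 28 genes. Prc1 had 2 starts, and a window that held a CHR is shown. The windows of Mki67 (chr7:135716380-135716629, minus strand), with CHR elements at 116 and 98 bases before the start, and of Prc1 (chr7:80294226-80294475, plus strand), with 1 at 30 bases, are shown with these in capitals.
Mki67: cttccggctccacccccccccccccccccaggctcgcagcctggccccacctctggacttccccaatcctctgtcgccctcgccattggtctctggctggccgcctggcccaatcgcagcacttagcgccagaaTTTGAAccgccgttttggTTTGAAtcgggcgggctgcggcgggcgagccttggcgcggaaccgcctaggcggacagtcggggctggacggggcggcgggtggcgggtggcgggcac
Prc1: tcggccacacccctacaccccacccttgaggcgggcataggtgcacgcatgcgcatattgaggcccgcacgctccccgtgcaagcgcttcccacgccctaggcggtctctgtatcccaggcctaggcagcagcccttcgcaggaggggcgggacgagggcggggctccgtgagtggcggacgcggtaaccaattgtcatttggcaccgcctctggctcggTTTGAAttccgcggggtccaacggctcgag
Both genes were higher in M3cKO PNX, 7.10-fold for Mki67 (5.98 to 8.47) and 6.24-fold for Prc1 (4.90 to 8.01). A motif match is a description of the window and not a measured site.

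**Figure D3:**
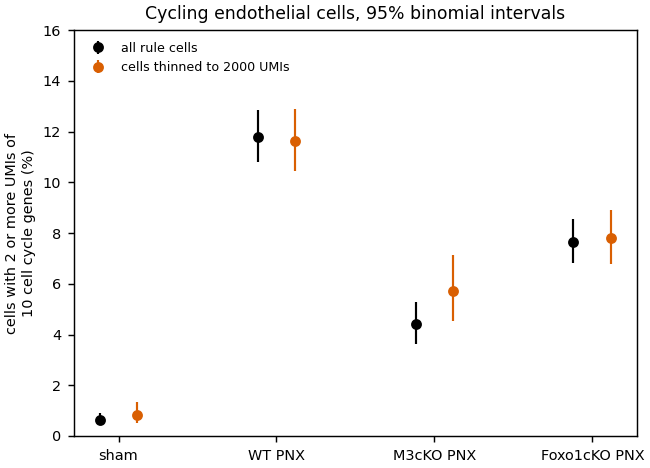
Share of rule cells with 2 or more UMIs over 10 cell cycle genes in each library, for all cells (black) and for cells thinned to 2000 UMIs (orange), with exact 95% binomial intervals. M3cKO PNX at 4.42% lies above sham at 0.622% and below WT PNX at 11.8%.

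Several of the largest ratios belonged to genes outside these lists. Hebp1, a haem-binding protein whose fragment attracts leukocytes, was at 5.24 CPM in sham against 78.9 in M3cKO PNX, with 29.8 in WT PNX and 64.1 in Foxo1cKO PNX, so sham was the low library. In cells with a Ptprc UMI Hebp1 had 0 UMIs in sham, where 3 UMIs would be 14.2 CPM. It was at 50.01 CPM in M3cKO PNX, 3.51-fold above that limit. The exact interval of the ratio to sham began at 2.83. Ramp3, which turns the receptor Calcrl into an adrenomedullin receptor, was at 15.7, 80.1, 18.1 and 21.8 CPM in the same library order, and at 57.0 and 345 CPM in the leukocytes of sham and M3cKO PNX. Within the endothelium it was at 15.2 and 74.3 CPM in general capillary cells, 25.98 and 117 CPM in venous cells and 8.51 and 15.4 CPM in aerocytes. Peg3, an imprinted zinc finger gene, was at 9.43 and 56.2 CPM, and the tubulin Tubb6 at 18.5 and 95.7 CPM with 80.9 and 79.5 CPM in WT PNX and Foxo1cKO PNX. Inhbb, a subunit of activin B, was at 18.4 and 61.8 CPM against 12.2 and 9.96 CPM in those 2 libraries. Plxna2, a semaphorin receptor, was at 69.4 and 193 CPM against 61.2 and 64.9 CPM. The chemokine genes Ppbp and Pf4 are platelet transcripts, and they were at 22.1 and 322 CPM and at 10.8 and 92.6 CPM. Without clusters led by blood or alveolar genes their log2 ratios were -0.32 and -0.42 in place of 3.59 and 2.63.

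Direction within classes was set beside the 15 largest named ratios on each side. These genes were counted at any level in a class, while the shares of all genes cover those at 50 CPM or more there. The measures thus differ. Some counted genes were low: in aerocytes Top2a had 3 UMIs in sham and 6 in M3cKO PNX, and Prc1 0 and 8. Of the 15 higher genes, 10 were at least 2-fold higher in aerocytes too (1.45% of all genes there), 10 in venous cells (2.67%) and 9 in general capillary cells (2.33%). Of the 15 lower genes, 7 were at least 2-fold lower in aerocytes (1.15% of all genes there), 11 in venous cells (2.72%) and 13 in general capillary cells (2.1%). In cells with a Ptprc UMI, 6 of the higher genes were at least 2-fold higher (9.98% of all genes there) and 2 of the lower genes at least 2-fold lower (7.83%). These are the genes chosen for their ratio over all rule cells, of which the classes are a subset, so the class values are a description.

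Retinoic acid is made from vitamin A and cleared by Cyp26 enzymes, and Cyp26b1 is also one of its target genes. Cyp26b1 (ENSMUSG00000063415, chromosome 6, 84571414 to 84593908) was at 50.4 CPM in sham against 3.39 in M3cKO PNX, with 6.14 in WT PNX and 5.43 in Foxo1cKO PNX. Sham was the one high library, and M3cKO PNX was 14.9-fold below it (9.72 to 23.9). Dhrs3, which turns retinaldehyde back to retinol, was at 113, 35.1, 46.3 and 47.8 CPM in that order, again highest in sham. Cyp1a1, the classic target of the aryl hydrocarbon receptor, was lowest in M3cKO PNX, at 181 CPM in sham against 52.4 in M3cKO PNX, with 146 in WT PNX and 149.5 in Foxo1cKO PNX, while Ahr, the receptor, was at 117, 52.5, 120.4 and 141 CPM. The flavin monooxygenases Fmo1 and Fmo2, which oxidise drugs and amines, were at 1319 and 476 CPM and at 295 and 112 CPM in sham and M3cKO PNX, with 740.1 and 762 CPM of Fmo1 in WT PNX and Foxo1cKO PNX. The fatty acid hydroxylase Cyp4b1 was at 1067, 417, 339 and 432 CPM in the 4 libraries. Slc16a9, a carnitine transporter, was at 558 CPM in sham against 147 in M3cKO PNX, with 280.3 in WT PNX and 235 in Foxo1cKO PNX, 3.78-fold lower than in sham (3.53 to 4.06). These genes were lower in each of aerocytes, general capillary cells and venous cells, with Fmo1 at 1996 and 1199, 1492 and 584, and 692 and 312 CPM in sham and M3cKO PNX.

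Several receptors of capillary endothelium were lower and others were not. Of 22 measured general capillary identity genes 9 were lower and 0 higher (median -0.50), and of 22 aerocyte identity genes 10 were lower and 0 higher (median -0.57). Aplnr, the apelin receptor of general capillary cells, was at 192 CPM in sham against 67.6 in M3cKO PNX, with 178 in WT PNX and 139 in Foxo1cKO PNX, while its ligand Apln, an aerocyte transcript, was at 203, 90.9, 211 and 228 CPM. M3cKO PNX was the low library for both. Kdr (VEGF receptor 2) was at 1561, 751, 1228 and 1394 CPM, its coreceptor Nrp1 at 706, 306, 493 and 556 CPM, and Ednrb, the endothelin B receptor, at 409, 191, 314 and 274 CPM. Lifr, the receptor of leukaemia inhibitory factor, was at 190 CPM in sham against 68.4 in M3cKO PNX, and Glp1r, the receptor of glucagon-like peptide 1, at 988 and 457 CPM. Emp2, a tetraspan membrane protein of aerocytes, was at 1126, 430.0, 567 and 631 CPM. Kit, the stem cell factor receptor, was at 439 and 417 CPM, Tek (TIE2) at 756 and 582 CPM and Cd93 at 2043 and 2792 CPM in sham and M3cKO PNX, all within 1.5-fold. The other VEGF receptors stood closer than Kdr, with Flt1 at 1094 and 1094 CPM and Flt4 at 198 and 147 CPM in sham and M3cKO PNX.

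Aerocytes were a smaller part of the rule cells in M3cKO PNX. Clusters named as aerocytes held 807 of the 4665 sham cells and 225 of the 2491 M3cKO PNX cells. Within them 4 of 22 aerocyte identity genes were lower and the median was -0.09. All genes at 10 CPM or more in aerocytes had a median of -0.08, with 11.4% at least 1.5-fold lower. Ednrb was at 1543 and 1383 CPM within aerocytes, and Emp2 at 3719 and 2691 CPM. When the M3cKO PNX clusters were weighted to the sham composition, the Emp2 log2 ratio was -0.69 in place of -1.38. Kdr within aerocytes was at 4209 and 2749 CPM and Nrp1 at 1532 and 822 CPM, both over 1.5-fold lower. Aplnr was at 289.9 and 119 CPM within general capillary cells.

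**Figure D4:**
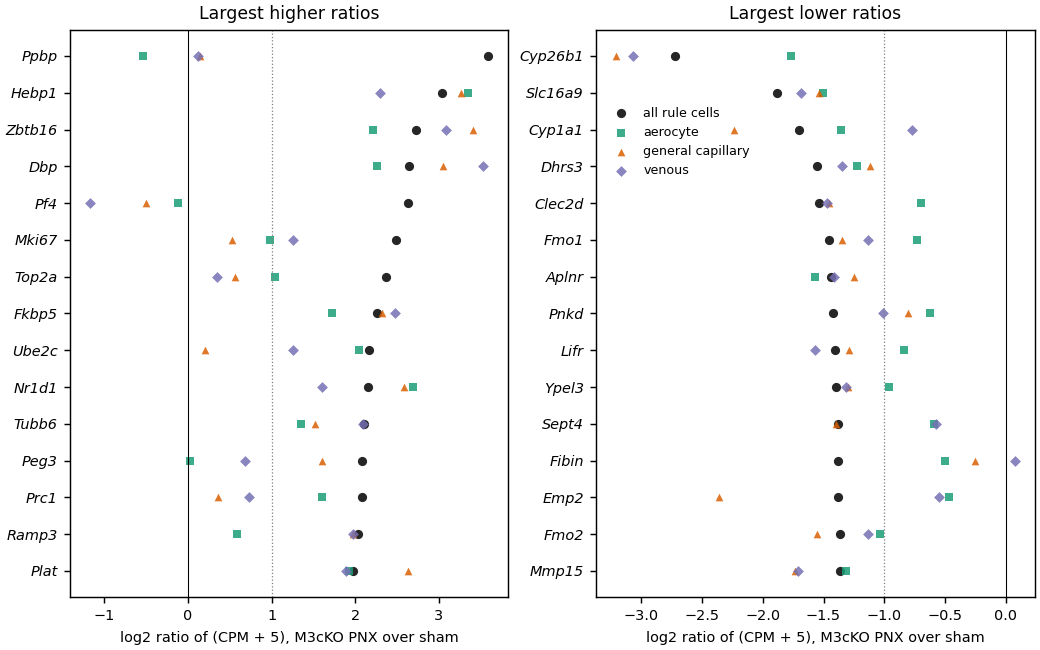
Log2 ratios of M3cKO PNX to sham (CPM + 5) for the 15 largest higher and 15 largest lower named genes, in all rule cells (black) and within aerocytes, general capillary cells and venous cells; the dotted line is 2-fold. Zbtb16, Hebp1, Dbp and Plat stay beyond 2-fold in all 3 classes, Ppbp and Pf4 are near or below 0 in them, and Emp2 and Fibin are within 2-fold in aerocytes.

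Interferon-inducible GTPases guard vacuoles against microbes, and the Ifi200 proteins sense DNA. Of 18 measured members of this list 13 were lower in M3cKO PNX and 0 higher, with a median of -0.74. Gbp7 was at 309 CPM in sham against 166 in M3cKO PNX, with 225 in WT PNX and 254 in Foxo1cKO PNX, while Iigp1 was at 236, 109.7, 150.5 and 193 CPM in that order. M3cKO PNX was the lowest library for both. Ifi208 was at 89.1 and 32.7 CPM in sham and M3cKO PNX, but WT PNX at 24.03 CPM was lower still. Within classes 12 of 17 members were lower in aerocytes, 14 of 17 in venous cells and 14 of 18 in general capillary cells, with 0 higher in any. The list median in cells with a Ptprc UMI was -0.02. In the general capillary class before centring, which held 98 M3cKO PNX cells, the median log2 ratio of list guanylate binding and Ifi200 proteins was 0.69. Of 28 classical interferon-stimulated genes 3 were lower and 1 higher, with a median of -0.25. Within classes 7 of 25 were lower and 0 higher in aerocytes, 9 of 26 lower and 2 higher in venous cells, and 9 of 27 lower and 0 higher in general capillary cells. The shares of all genes lower there were 11.4%, 16.2% and 13.4%. Of 22 genes of MHC class I and peptide loading 7 were lower and 0 higher (median -0.28), among them Psmb10, a subunit of the immunoproteasome, at 158 and 65.9 CPM. The MHC class I gene H2-T23 was at 1107 CPM in sham against 642 in M3cKO PNX, with 346 in WT PNX and 426 in Foxo1cKO PNX, while the class II gene H2-Ab1 was at 1057, 727, 439 and 504 CPM. For these 2 genes M3cKO PNX lay between sham and the other libraries.

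Surface and signalling genes moved in both directions. Of 19 leukocyte adhesion genes 5 were higher and 1 lower. Icam1, which binds leukocyte integrins, was at 512 CPM in sham but 1003 in M3cKO PNX, against 538 and 475 CPM in WT PNX and Foxo1cKO PNX, and Mcam at 501 and 971 CPM against 612 and 621. Cd38, an NAD-consuming enzyme, was the lower one, at 132 and 66.4 CPM. Of 25 cytokines and angiocrine ligands 3 were higher and 8 lower. Bmp6, a ligand that induces hepcidin in liver, was at 773, 319, 445 and 436 CPM in sham, M3cKO PNX, WT PNX and Foxo1cKO PNX. Igfbp5 was at 248 and 90.4 CPM over all rule cells, but in venous cells at 207 and 589 CPM. Lymphatic cells carried it at 6022 CPM in sham, and they were 164 of the 4665 sham cells and 38 of the 2491 M3cKO PNX cells. Il6 was at 47.8 and 20.9 CPM, and at 1154 and 119 CPM in cells with a Ptprc UMI. Nos3, which makes nitric oxide, was at 67.0 and 150.5 CPM. Of the 18 coagulation and fibrinolysis genes 7 were higher and 1 lower. The higher ones included Plat, Anxa2 at 318 and 562 CPM, its partner S100a10 at 279 and 544 CPM, and Plaur, the urokinase receptor, at 202 and 315 CPM.

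**Figure D5:**
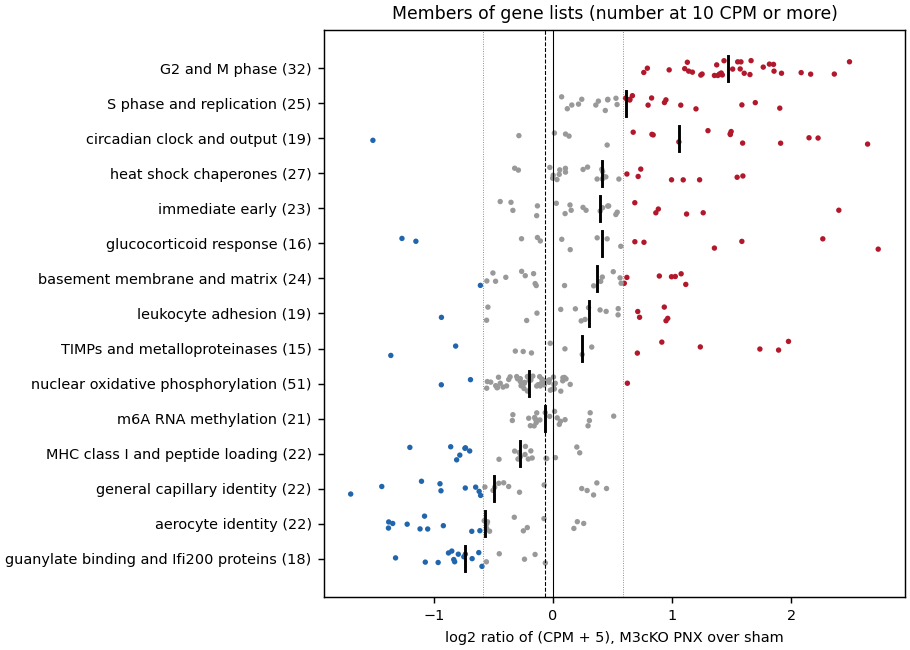
Log2 ratios of M3cKO PNX to sham for the measured members of 15 gene lists, 1 point per gene, red at 1.5-fold higher or more and blue at 1.5-fold lower or more. Black bars are list medians, from 1.47 for G2 and M phase to -0.74 for guanylate binding and Ifi200 proteins, and the dashed line is the median of all genes at -0.07.

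The genes named in the series and sample titles differed little between the compared libraries. Rhoj, a small GTPase of the Cdc42 branch, was at 314 CPM in sham against 322 in M3cKO PNX, with 264 in WT PNX and 248 in Foxo1cKO PNX. The M3cKO PNX level was 1.03-fold that of sham (0.972 to 1.09). It was at 239 and 182 CPM in aerocytes, 298 and 351 in general capillary cells and 403 and 596 in venous cells. Foxo1, a forkhead factor of endothelial quiescence, was at 196, 185, 208 and 70.1 CPM in the 4 libraries in the same order. Of 37 genes of the Rhoj and Cdc42 list 1 was higher and 2 lower, with a median of 0.06. The higher one was Rhoc, at 338 and 758 CPM. Of 33 FOXO factors and targets 5 were higher and 4 lower, with a median of -0.14, and of 21 genes of m6A RNA methylation 0 were higher and 0 lower, with a median of -0.06. Mettl3, the catalytic subunit of the m6A writer, was at 24.4, 23.1, 25.2 and 16.3 CPM in sham, M3cKO PNX, WT PNX and Foxo1cKO PNX. Foxo1 was thus lowest in the library labelled Foxo1cKO PNX. The gene that M3 stands for is not given, so the label of M3cKO PNX could not be checked in this way. Of 51 genes of oxidative phosphorylation 1 was higher and 2 lower (median -0.20), of 34 of fatty acid handling 0 and 9 (median -0.15), and of 26 of glycolysis and hypoxia 6 and 2 (median 0.05).

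The remaining lists are given by their counts and medians. Over all 8927 genes 6.22% were higher and 7.59% lower by the same rule, so counts near these shares are not results about their members. Of 11 MHC class II genes 1 was higher and 2 lower (median -0.44). Within aerocytes 4 of the 7 members measured there were lower and 1 higher (median -0.89). In venous cells 6 of 8 were lower and 0 higher (median -0.78), and in general capillary cells 5 of 8 and 0 (median -0.69). The shares of all genes lower in these classes were 11.4%, 16.2% and 13.4%. Of 18 genes of mesenchymal transition 4 were higher and 2 lower (median -0.01), and of 19 of vasoactive peptides, nitric oxide and prostanoids 4 and 6 (median -0.24). Of 21 VEGF and angiopoietin genes 1 was higher and 6 lower (median -0.11), of 18 Notch genes 3 and 0 (median 0.01), and of 30 BMP, activin and TGF-beta genes 3 and 5 (median -0.05). Of 25 arterial and venous identity genes 4 were higher and 5 lower (median 0.17), of 20 Kruppel-like factors and shear response genes 3 and 3 (median 0.07), and of 24 junction genes 0 and 3 (median -0.12). The p53, apoptosis and survival list had 4 of 31 higher and 0 lower (median 0.10), the guidance and tip cell list 5 and 7 of 34 (median 0.02), the Sox factor list 0 and 2 of 24 (median -0.18), and Hippo and YAP 2 and 1 of 20 (median -0.09). Cyclins D, CDKs and their inhibitors had 4 of 16 higher and 3 lower (median 0.25).

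Some named genes overlap the exons of another gene on the opposite strand, and the sources used here do not say whether counting used the strand. The partner of Timp3, Syn3, was at 1.52 CPM in sham against 7.24 in M3cKO PNX, that of Dbp, Sphk2, at 18.7 and 15.7 CPM, and that of Hebp1, Fam234b, at 6.10 and 4.00 CPM. Nr1d1 overlaps Thra, which was at 196 and 107 CPM and so moved the other way.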

How the data were processed

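The authors deposited matrices of raw UMI counts, genes by barcodes, for 4 libraries, mapped to mm10 with Cell Ranger 2.1.1 per the labels' protocols. From these counts, cells were chosen by the rule above and summed per library as CPM. With 1 library per group no test was run. Ratios used a pseudocount of 5 CPM. Genes were called at 2-fold with 50 CPM or more in either library, and members of the 37 gene lists at 1.5-fold with 10 CPM or more. The members and lists were chosen with earlier results of these data known.

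Named were, per direction, the 15 largest log2 ratios, up to 4 members of each list at 20 CPM or more, and Foxo1 and Rhoj. Left out of the largest ratios were mitochondrial, ribosomal, haemoglobin, immunoglobulin, T cell receptor, Y-linked and numbered model genes, Xist and Tsix. Also left out were the 10 genes of the cell rule, genes over 5 times as high in cells outside the rule, and genes with over 25% of their UMIs in 1 cell.

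Intervals are exact 95% Poisson or binomial ones. The limit for a count of 0 is 3 UMIs per library. Rule cells of all 4 libraries were clustered with scanpy 1.11.5 and leidenalg 0.10.2 (2000 variable genes, 30 components, 15 neighbours, resolution 1). Members of the G2 and M phase and S phase lists, Y-linked genes and the 10 rule genes were left out of the variable genes. So were mitochondrial, ribosomal, haemoglobin, immunoglobulin, T cell receptor and numbered model genes, Xist and Tsix. Clusters were named from fixed markers. Doublets were kept, and their removal with Scrublet was an alternative. Other alternatives changed the pseudocount, the CPM minimum, the scaling (TMM in edgeR 4.0.16), the cell filters, depth, and the classes used. The scripts were tested on simulated data. Some results are not reported here.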

Additional observations from a re-analysis of the deposited data

Results flagged for a closer look

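Cells with a Ptprc UMI and no endothelial UMI were outside the comparison, with 101 cells in sham and 1236 in M3cKO PNX. Among the named genes at least 2-fold apart in the rule cells, 4 stood out there, with 50 CPM or more in M3cKO PNX and a fold over sham whose counting interval lay wholly above 2. Hebp1 had 0 UMIs in the sham cells and 50.01 CPM in M3cKO PNX. Its log2 ratio of 3.46 rests on the pseudocount of 5 CPM. Against the limit of 3 UMIs it was 3.51-fold higher, and the exact interval of its ratio to sham began at 2.83. Ramp3 had a log2 ratio of 2.50, with 57.0 and 345 CPM. Mt1 had a log2 ratio of 2.34, with 123 and 647 CPM. Thbs1 had a log2 ratio of 5.17, with 14.2 and 690.1 CPM. In the rule cells without clusters led by blood or alveolar genes the log2 ratio of Thbs1 was -0.13. Across all genes at 50 CPM or more in these cells 9.98% were at least 2-fold higher in M3cKO PNX and 7.83% at least 2-fold lower.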

How the results depend on the processing

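No paired analysis was possible because each group had 1 library, and for the same reason no replicate could be left out. Against 82 genes higher and 64 lower, a pseudocount of 20 CPM gave 61 and 42. A minimum of 20 CPM gave 162 and 104, a minimum of 100 CPM 46 and 42, and no minimum 279 and 137. Cells of at most 5% mitochondrial UMIs gave 130 and 127, and weighting to the sham composition 65 and 40. The general capillary class alone (2266 sham and 98 M3cKO PNX cells) gave 165 and 150. TMM scaling gave 97 and 56. The share of cycling endothelial cells in M3cKO PNX was 7.43% with 1 UMI or more, 3.49% with 3 or more and 5.72% after thinning. That of sham was 2.21% with 1 or more and 1.01% with at most 5% mitochondrial UMIs.

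Directions turned in 6 settings (log2 ratios, for genes at least 1.5-fold apart). In the general capillary class alone they were Ppbp -1.05, Pf4 -0.91, Top2a -0.32, Ube2c -0.62, Prc1 -0.26, Pnkd 0.10, Rrm2 -0.53, Cdkn2b 0.13, Rbl2 0.31, Psmb9 0.13, Ifih1 0.14, Tgtp2 0.72, Gbp7 0.45, Dll1 -0.24, Cdc42ep3 0.80, Nr4a3 -0.26, Ctss -0.37, Ifi208 0.29, Iigp1 0.98, Itgb3 -0.87, Tagln 0.62, Igfbp5 1.10, Apln 1.41, Prnd -0.20 and Mmrn1 0.95, and the guanylate binding and Ifi200 list had a median of 0.69. There the log2 ratio of Vwa1 was -0.069, the log2 ratio of S100a4 was -0.069, the log2 ratio of Chst1 was 0.058 and the log2 ratio of Ccn1 was -0.064. Without clusters led by blood or alveolar genes they were Ppbp -0.32, Pf4 -0.42 and Thbs1 -0.13. In general capillary cells of the library-centred clustering they were Pf4 -0.51, Rrm2 -0.57, Cdkn2b 0.49, Cdkn2c -0.16, Thbs1 -0.47, Itgb3 -0.69, Tagln 1.21, Atf3 -0.94, Rsad2 -1.12, Tgfbi 0.56, Gadd45a -0.34 and Ccn1 -0.65, and the log2 ratio of Bpgm was 0.026. With at most 5% mitochondrial UMIs Cdc42ep3 was 0.29, and weighted to the sham composition Selplg was -0.14. Without the stress cluster of that clustering the log2 ratio of Ccn1 was -0.026. The settings without blood or alveolar clusters, of the library-centred clustering and without its stress cluster were chosen after the data were seen. The general capillary classes leave out the separate clusters led by cell cycle genes and by stress genes, and unnamed clusters. The class before centring leaves out the unnamed cluster led by Zbtb16 and Plat. That of the library-centred clustering leaves out the unnamed cluster with Ntrk2 and Sema3c among its leading genes. The cause of the turned directions was not tested. Differences of a few CPM were not detectable at this depth in the smaller classes.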
